A study of Mus musculus with 3 samples.

Results

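Open chromatin was examined around 10 genes grouped as brush border structure genes, of which Cdh17 acts at the lateral membrane: Vil1, Cdhr2, Cdhr5, Myo1a, Espn, Ush1c, Myo7b, Ezr, Eps8 and Cdh17. The genes were chosen by name, out of 21887 protein-coding genes in the gene table, and each locus was the gene body plus 50 kb on either side. ATAC-seq, which marks accessible DNA by the insertion of sequencing adapters, had been performed on epithelial cells of the small intestine of mouse embryos at E16.5 (embryonic day). The cells had been captured with beads against EpCAM, a surface protein of epithelium, and 20000 cells went into each library. The control group held 1 library of the genotype Hnf4gCrispr/+, which carries 1 mutated copy of Hnf4g, and its label names no Cre driver and no Hnf4a allele. The double knockout (DKO) group held 2 libraries, replicates 1 and 2, called DKO1 and DKO2 here, of the genotype Shh-Cre; Hnf4af/f; Hnf4gCrispr/Crispr, in which Hnf4a is floxed, both copies of Hnf4g are mutated and recombination depends on Shh-Cre. Shh-Cre is active in cells that express Shh or descend from such cells, which in the gut is the epithelium. The labels do not say whether the DKO replicates came from separate embryos, so the spread between them may be technical. All 3 libraries thus carry at least 1 mutated Hnf4g copy, and none is wild type. The comparison addresses where peaks were called at these genes in the control and in the DKO of the nuclear receptors HNF4A and HNF4G. Loss of the proteins is read from the genotype labels and was not checked here.

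The brush border is the dense array of microvilli on the apical surface of enterocytes. Each microvillus holds a bundle of parallel actin filaments that is cross-linked by bundling proteins, tied to the membrane by motor and linker proteins, and joined to its neighbours at the tips by protocadherins. HNF4A and HNF4G bind DNA as dimers at direct repeats and are known regulators of enterocyte genes, including genes of the brush border.

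The deposited data were 1 peak list per library, each peak a window of 601 bp with a score. The lists held 16977 peaks in the control, 18268 in DKO1 and 26648 in DKO2, with median scores of 21, 24 and 22. Scores have no stated common scale, so they are given with their percentile rank among the peaks of the same list, where 100 is the strongest. Distances to a start site are from the centre of a region, and distances between peaks are from edge to edge. Sequencing depth is unknown, and a missing peak means that none was called, not that chromatin was closed. Accessibility was summed over many cells, so a smaller share of one cell type and less accessible chromatin in each cell cannot be told apart. Of 8 epithelial marker genes that could be placed, 4 had a peak at the start site in the control, 7 in DKO1 and 6 in DKO2. Over all genes placed, 44.0%, 51.0% and 52.8% had one, so such short lists do not measure the purity of the cells. No library had a start-site peak at 4 immune, 4 endothelial or 3 mesenchymal and muscle markers. Of 3 nerve and glia markers, Elavl4 had one in DKO1 and in DKO2 but not in the control. The part of cell makeup in the results below was not tested.

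The peaks are on mm9, per the submitters' processing notes, whereas the gene table is of GRCm38.p6. Each gene was therefore moved by the shift, within 8 Mb, that put peaks on most start sites in the surrounding 5 Mb, its own start sites left out. The shift was clear for Cdhr2, where 30 of 75 start sites met a peak against 8 at the next best shift, and for Cdhr5, where 60 of 171 did against 21. It was narrower for Vil1, with 21 of 65 against 15, and for Eps8, with 10 of 49 against 9. Among start sites within 0.5 Mb, however, 11 against 0 met a peak at Vil1 and 2 against 0 at Eps8. At Ezr the nearest start sites were tied, with 6 of 15 at either shift, so Ezr was left out of the counts and is described at both positions. The counts below therefore cover 9 genes, and gene positions are accurate to the shift, not to the base.

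The upstream sequences of Vil1, Myo1a and Ezr are shown because these are the members with an entry in the promoter table and a peak close to the start site in at least 1 library (for Ezr at its second position). They are the 250 bases before the start, from RefSeq on GRCm38.p6, with matches to CCNCNCCC on either strand, the form bound by KLF and SP factors, in capitals. Vil1 is at chr1:74409134-74409383 on the plus strand, Myo1a at chr10:127705006-127705255 on the plus strand, and Ezr at chr17:6782781-6783030 on the minus strand.
Vil1: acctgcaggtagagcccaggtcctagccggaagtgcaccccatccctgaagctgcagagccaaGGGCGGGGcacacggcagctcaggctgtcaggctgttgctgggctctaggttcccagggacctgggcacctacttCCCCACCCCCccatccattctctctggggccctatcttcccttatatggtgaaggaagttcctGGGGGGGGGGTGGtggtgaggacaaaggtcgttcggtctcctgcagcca
Myo1a: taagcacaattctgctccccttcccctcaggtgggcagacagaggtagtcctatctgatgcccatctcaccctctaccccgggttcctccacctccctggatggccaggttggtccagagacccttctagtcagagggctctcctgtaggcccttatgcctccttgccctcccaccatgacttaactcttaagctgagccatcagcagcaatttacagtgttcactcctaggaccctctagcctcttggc
Ezr: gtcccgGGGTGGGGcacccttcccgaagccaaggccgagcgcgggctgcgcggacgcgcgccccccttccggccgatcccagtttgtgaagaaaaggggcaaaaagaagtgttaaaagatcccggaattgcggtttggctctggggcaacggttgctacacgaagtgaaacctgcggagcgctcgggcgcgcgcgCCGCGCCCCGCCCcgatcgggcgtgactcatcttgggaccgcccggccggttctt

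The 3 sequences differ in base composition. Ezr is 67.2% G and C with 32 CpG pairs, Vil1 is 62.8% with 5, and Myo1a is 56.0% with 1, against a median of 52.4% over the same bases of all promoters in the table. In the windows from 250 bases before to 50 after the start of all 7 members with an entry, 9 promoters in all since Espn has 3, neither CAAAGNNCA, the form of an HNF4 direct repeat, nor CAAAGTCCA occurred on either strand. The first is present in 6.36% of all 32851 promoters and the second in 0.475%, and every match to the second is also a match to the first. CCNCNCCC was present in 7 of the 9 promoters, against 49.5% of all. The 7 include all 3 promoters of Espn, beside those of Vil1, Ush1c, Myo1a and Ezr, so they are not independent. The Myo1a match lies after the start site and so outside the sequence shown. The motif GTTAAT, part of the site that HNF1 factors bind, was found at Cdhr2 and is present in 7.10% of all promoters. A form of the site bound by CDX factors, TTTATNG, was found at 1 Espn promoter and is present in 10.9% of all. The GATA factor motif AGATAA, present in 11.2% of all, was found at no member.

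At 5 of the 9 genes a start site had a called peak in at least 1 library. The edge of a peak lay within 500 bp of a start site in the control for Myo1a, Myo7b and Eps8, in DKO1 for Eps8 and Cdh17, and in DKO2 for Vil1, Eps8 and Cdh17. These are 3, 2 and 3 of 9 genes, against 44.0%, 51.0% and 52.8% of the 16532 protein-coding genes placed in the same way. Cdhr2, Cdhr5, Espn and Ush1c had no start-site peak in any library, as did 41.9% of all genes placed. Eps8 was the only one of the 9 with a start-site peak in all 3 libraries. Its call rests on the shift: with the shift found over 10 Mb, which differed by less than 1 kb, the counts were 2, 1 and 2. Myo7b, Eps8 and Cdh17 have no strand in the tables used, so either end of the gene was accepted for them, in the genes of the background likewise.

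The 9 loci held 50 regions of overlapping peaks, made of 30 control, 31 DKO1 and 37 DKO2 peaks. Peaks of all 3 libraries met in 18 regions (36.0%), against 30.9% of all 33564 regions of the genome. Control-only regions, with a control peak and no DKO peak, numbered 11, which is 22.0% (Wilson 95% interval 12.8 to 35.2%, covering counting error only), against 13.0% of all regions. DKO-only regions, called in DKO1 as well as DKO2 but not in the control, also numbered 11, against 16.0% of all regions. Both background values lie inside the interval. The remaining 10 regions were called in DKO2 alone (7), in DKO1 alone (2), or in the control and DKO2 (1). Those in DKO2 alone were 14.0% at the members (Wilson 95% interval 6.95 to 26.2%). Of all regions 27.2% were, which lies outside that interval. Those in DKO1 alone were 4.00% against 6.19% of all, and those in the control and DKO2 2.00% against 5.32%. A smaller share of DKO2-alone regions leaves larger shares to the other classes.

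**Figure D1:**
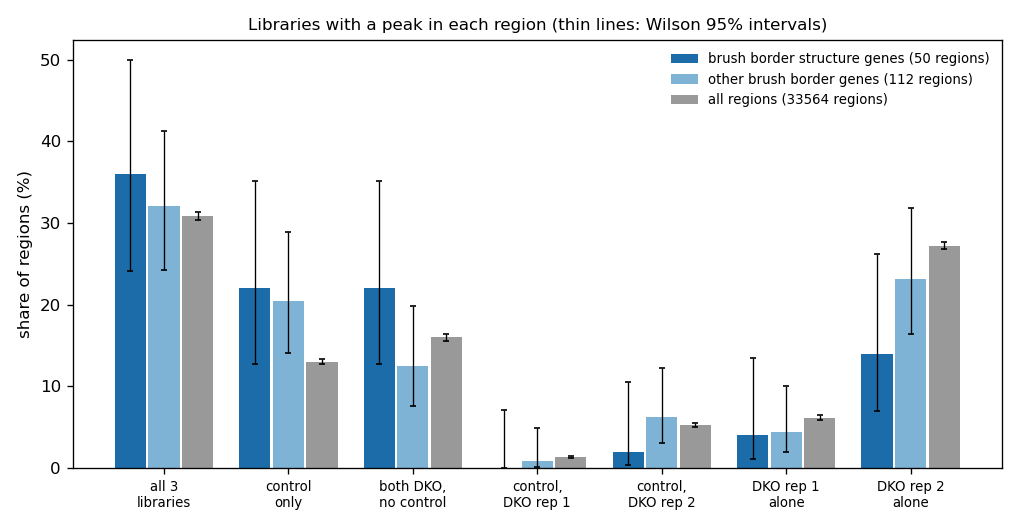
Share of regions by the libraries that have a peak in them, for the 9 counted members (50 regions), 18 other brush border genes (112 regions) and all 33564 regions. The vertical axis is the share in percent and the thin lines are Wilson 95% intervals. Control-only regions make up 22.0% at the members and 13.0% of all regions.

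The control-only count depends on 1 locus. Without Eps8, 6 of 39 regions were control-only (15.4%) and 9 were DKO-only (23.1%). Without DKO1, 18 regions had a DKO2 peak and no control peak. These are the 11 DKO-only regions and the 7 called in DKO2 alone, so the rise follows from the definition. Of all regions, 16.0% were DKO-only and 27.2% called in DKO2 alone, against 22.0% and 14.0% at the members. The genome share without DKO1 was not computed. With 1 control library, the smallest p that an exact permutation of the 3 labels allows is 0.333, so genotype was not tested. The difference between the DKO replicates is the only replicate spread at hand. This spread may be technical and gives none for the control.

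In the members' own bodies or at their start sites, 8 of 19 regions were control-only and 3 were DKO-only. Of 31 flanking regions, 3 were control-only and 8 were DKO-only, and the difference between body and flank was not tested. Shares over the flanks of all placed genes were not computed, so this difference cannot be called particular to the members. Over all placed genes, 10.7% of body and start-site regions were control-only and 15.5% DKO-only. Eps8 supplied 5 of the 8: without it, 3 of 10 such regions were control-only. Strong control-only regions, with a control rank of 75 or more, numbered 4 of 50, at Eps8 (2), Espn and Myo7b, against 1.01% of all regions. No DKO-only region at these genes had a rank of 75 or more in both DKO libraries, which 0.912% of all regions had.

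**Figure D2:**
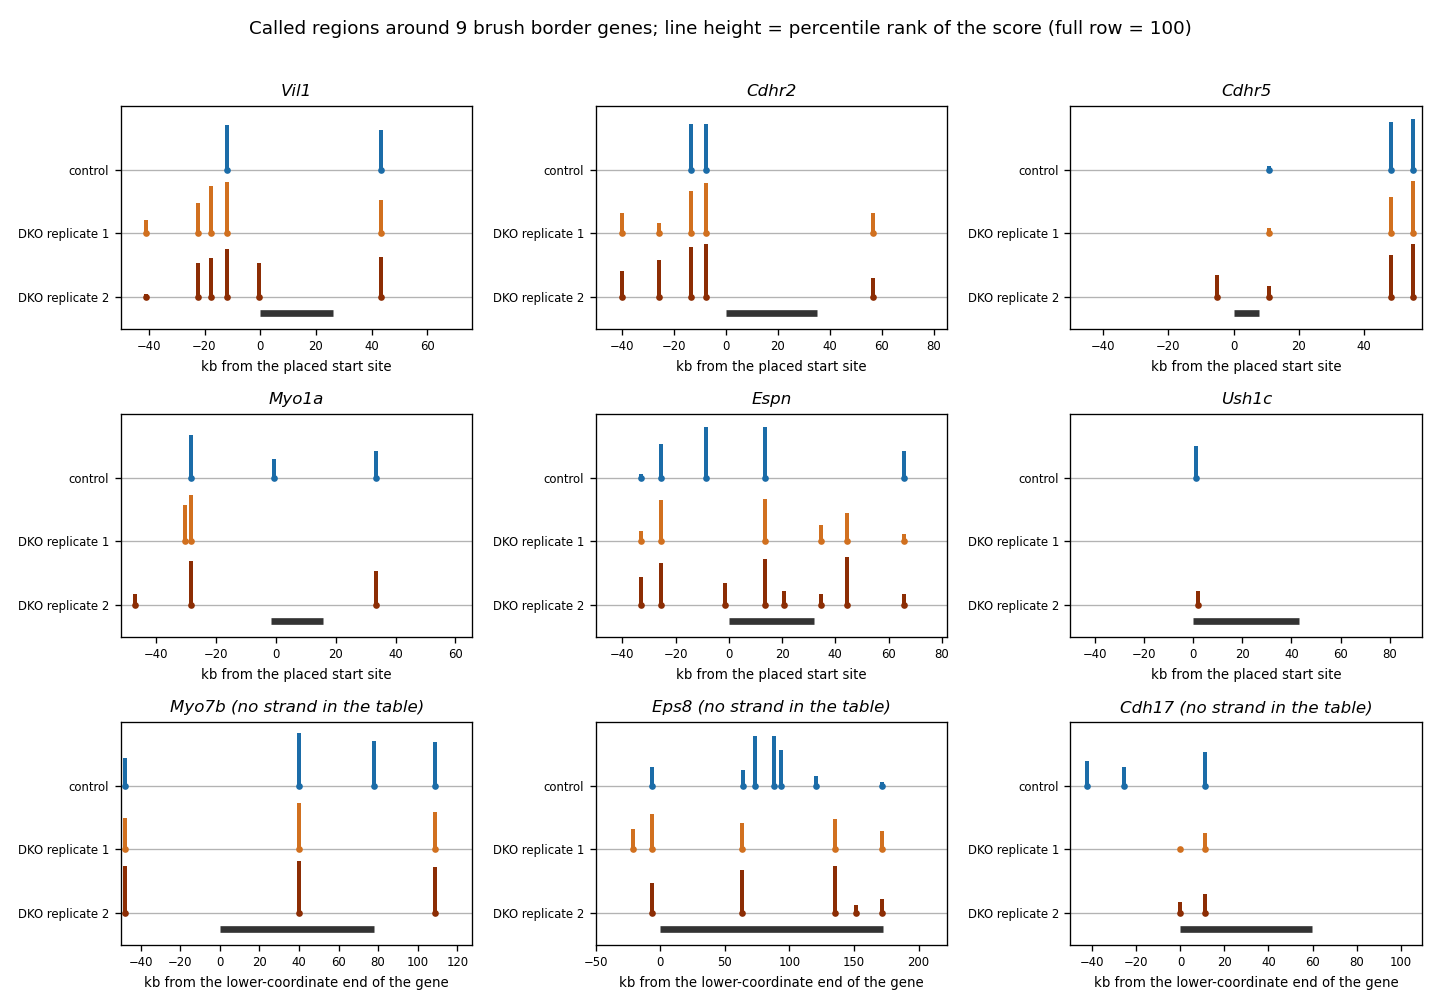
Called regions around the 9 counted genes, as distance in kb from the placed start site (transcription to the right) or, for the genes without strand, from the lower-coordinate end. Each line is a region with a peak in that library, its height is the percentile rank, a dot marks its foot and the black bar is the gene body. The 4 tallest lines without a DKO counterpart lie at Eps8 (2 of them), Espn and Myo7b.

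Among the actin-bundling genes, Eps8 had the most control-only regions. EPS8 caps and bundles actin at the tips of microvilli. Its locus of 272 kb held 11 regions, of which 5 were control-only, 2 were DKO-only and 2 were called in all 3 libraries. The 5 control-only regions all lay inside the gene as placed. The shift used for Eps8 had a narrow margin over the next best, as given above, and these positions rest on it.

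The 2 strongest Eps8 regions, at chr6:137498576-137499176 and chr6:137513930-137514530, both had a control score of 40 and a rank of 91.9. The first lay 8995 bp from a DKO1 peak and 9005 bp from a DKO2 peak, and the second lay 24349 and 24359 bp from them. Another, at chr6:137519214-137519814, had a score of 25 and a rank of 65.7, with no DKO peak within 29633 bp. A weaker one, at chr6:137546181-137546781, had a rank of 17.0. The last, at chr6:137489632-137490232, had a rank of 28.9 and lay 51 bp from the DKO1 peak of a DKO-only region and 61 bp from its DKO2 peak.

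Both DKO-only regions of Eps8 also lay inside the gene. That at chr6:137488971-137489581 ranked 49.4 in DKO1 and 79.8 in DKO2. That at chr6:137560454-137561089 ranked 55.7 and 87.2, with the nearest control peak 13673 bp away. The region at the higher-coordinate end, the start-site call above, was weak in each library, with ranks of 6.47 in the control and 34.0 and 25.4 in the DKO replicates. Among 1311 placed genes with loci of 200 to 350 kb, 0.153% had 5 or more control-only regions, namely Eps8 and Cracdl. Myo5b, from the list of other brush border genes, also had 5, in a longer locus of 430 kb outside that range. The range and the limit were chosen after the Eps8 count was seen and are a description only.

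Espn encodes espin, a bundling protein that sets the length of parallel actin bundles. Its locus of 132 kb held 9 regions, and none of its 3 start sites had a peak. A control-only region at chr4:151534789-151535389, 8420 bp upstream of the nearest start site and inside the neighbouring gene Hes2, had a score of 42 and a rank of 93.5. The nearest peak of DKO1 was 16602 bp away and that of DKO2 was 6439 bp away. Inside Espn, the region at chr4:151512611-151513227 was called in every library, with ranks of 94.8 in the control, 78.6 in DKO1 and 84.3 in DKO2. The control was the highest of the 3 there, by more than the DKO replicates differed from each other.

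On the other side of Espn, 2 DKO-only regions lay beyond the gene end. The stronger, at chr4:151481817-151482571 inside Plekhg5, ranked 52.6 in DKO1 and 89.5 in DKO2. The weaker, at chr4:151491550-151492283 inside Tnfrsf25, ranked 29.5 and 19.8. The region at a Plekhg5 start site, chr4:151460504-151461422, was called in all libraries and ranked 50.4 in the control against 14.4 and 19.8 in the DKO replicates. Control-only, DKO-only and shared regions thus lay within 1 locus.

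Vil1 encodes villin, which bundles, caps and severs actin filaments and is a classical marker of intestinal epithelium. It had no control-only region. The only start-site peak was that of DKO2, at chr1:74455295-74455895, 327 bp upstream, with a score of 26 and a rank of 63.0. The nearest peaks of the control and DKO1 were 10939 and 10948 bp away from it, so the 2 DKO replicates disagreed at this promoter.

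Upstream of Vil1, 11817 bp from the start site, the region at chr1:74443747-74444463 was called in all 3 libraries, with a score of 32 in the control (rank 82.4), 59 in DKO1 (rank 95.1) and 43 in DKO2 (rank 88.0). The control had the lowest rank, and the gap to the lower DKO value was smaller than that between the DKO replicates. The 3 DKO-only regions lay 17787 to 41065 bp upstream. The strongest, at chr1:74437814-74438457, touched the start site of Ctdsp1 and ranked 87.3 and 71.8 in the DKO replicates, with a control peak 5299 bp away. The next, at chr1:74433271-74433943, ranked 55.7 and 63.0.

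Myo1a encodes a class I myosin that links the actin core to the microvillar membrane. A control-only region at chr10:127141332-127141932 had a score of 18 and a rank of 34.8. It lay 759 bp upstream of the start site used but inside the recorded gene body, which begins further upstream. Its rank was in the lower part of the control list, although the nearest DKO peaks were 27035 and 27126 bp away. The strongest region of the locus was at the start site of Nemp1, with ranks of 78.8 in the control, 85.7 in DKO1 and 82.2 in DKO2. No DKO-only region was found.

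Ezr encodes ezrin, which ties actin filaments to membrane proteins, and its position on the lists was not resolved. At the best shift, 13 of 48 start sites in the surroundings met a peak. Ezr then had no start-site peak and 2 regions in its locus, one control-only (rank 40.3) and one DKO-only (ranks 9.70 and 35.8). The best shift was -87 bp and the next best 204436 bp, where 10 of 48 start sites met a peak and the Ezr start site met a peak in all 3 libraries.

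At that second position the start-site region, chr17:6986747-6987456, had scores of 22 in the control, 24 in DKO1 and 25 in DKO2, and ranks of 54.8, 49.4 and 60.5. The control lay between the DKO replicates. The locus then held 8 regions, 4 of them called in all libraries. One of its 2 control-only regions, at chr17:6960088-6960688, lay inside Ezr with a score of 31 and a rank of 80.7, and had no DKO peak within 11379 bp. Counting Ezr at either position gave 12 or 13 control-only regions and 12 DKO-only regions over 10 genes.

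The tips of microvilli are joined by the protocadherins encoded by Cdhr2 and Cdhr5, which are held by the scaffold harmonin (Ush1c) and the motor myosin VIIb (Myo7b). These 4 genes did not share one pattern: Ush1c and Myo7b had a control-only region in the gene or at its end, Cdhr2 had DKO-only regions in its flanks, and Cdhr5 had neither.

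At Myo7b, a control-only region on chromosome 18 from 32196426 to 32197026 lay 188 bp from the higher-coordinate end of the gene, with a score of 32 and a rank of 82.4. The nearest DKO peaks were 30123 and 30163 bp away. The region inside Myo7b from 32158579 to 32159207 was one of the strongest at any member, with scores of 49, 43 and 62 and ranks of 96.6 in the control, 85.7 in DKO1 and 96.6 in DKO2. That region did not separate the genotypes, since control and DKO2 had the same rank to 3 digits. The other 2 regions of the locus were at the start sites of Sft2d3 and Iws1 and were called in all libraries.

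Ush1c had the fewest regions of the 9 genes. A control-only region at chr7:53492379-53492979 lay inside the gene, 1212 bp downstream of the start site, with a score of 23 and a rank of 58.8. DKO2 had a weak peak (rank 25.4) beside it, 128 bp away, and DKO1 had none within 158549 bp. When peaks up to 1 kb apart were counted as one, an alternative chosen after the data were seen, the control-only regions of the 9 loci fell to 9 from 11.

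Cdhr2 had no peak inside its body or at its start site in any library. Its 2 shared regions lay at start sites of the adjacent gene Rnf44. The stronger, at chr13:54795165-54795799, ranked 84.0 in the control, 92.6 in DKO1 and 98.1 in DKO2, and the other ranked 85.6, 78.6 and 92.0. Of the 3 DKO-only regions, none exceeded a rank of 38.4 in DKO1 or 67.7 in DKO2, with control peaks 11404 to 30245 bp from them.

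Cdhr5 had no control-only and no DKO-only region. All 3 shared regions lay downstream of the gene, between 10771 and 54971 bp from its start site. That at chr7:148407448-148408124 ranked 94.1 in the control and 97.3 and 98.3 in the DKO replicates. The regions at the start sites of Phrf1 and Irf7 were the other shared ones, and the remaining region, 5036 bp upstream, was called in DKO2 alone (rank 40.2).

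Cdh17 encodes LI-cadherin, an intestinal cadherin of the lateral membrane and not of the microvilli. A DKO-only region at chr4:11684922-11685610 lay 39 bp from the lower-coordinate end of the gene. It was weak in both lists, with scores of 12 and 15 and ranks of 0.824 and 19.8, with a control peak 10575 bp off. Inside the gene, the region at chr4:11696135-11696916 was called in all libraries with scores of 24 in the control, 19 in DKO1 and 18 in DKO2, and ranks of 62.3, 29.5 and 35.8. The control exceeded both DKO libraries there by more than these differed from each other. The 2 control-only regions lay outside the gene, with ranks of 45.5 (at the start site of Gem) and 34.8.

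Over the 18 shared regions, with a peak in every library, the control rank minus the mean DKO rank had a median of -4.40 points, with a range of -29.0 to 33.3 and an SD of 18.0 points across regions. Over all 10355 such regions of the genome the median was -5.05 points. Between the DKO replicates, the difference at the same 18 regions had a median of -6.02 points and an SD of 11.3 points. The control was higher than both DKO libraries at 5 of the 18 regions, lower than both at 10, and between or equal at 3. Over the genome these were 2296, 5296 and 2763 of 10355 regions. In both sets the control was most often the lowest. Ranks depend on list length, which was 16977 peaks in the control and 26648 in DKO2. With equal list lengths the median at the members was -1.30 points over 14 regions. The part of list length in the lower control ranks was not tested. With each peak trimmed to its central 200 bp the median changed sign, to 2.35 points over 14 regions.

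Rank shifts of at least 25 points against both DKO libraries were seen at 2 of the 18 regions, both higher in the control: the region inside Cdh17 and that at the Plekhg5 start site near Espn. Over the genome, 2.63% of shared regions were that much higher in the control and 12.3% that much lower. None of the 18 was that much lower. The region nearest to that limit, 6039 bp outside the lower-coordinate end of Eps8, ranked 34.8 in the control and 66.0 and 54.7 in the DKO replicates.

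**Figure D3:**
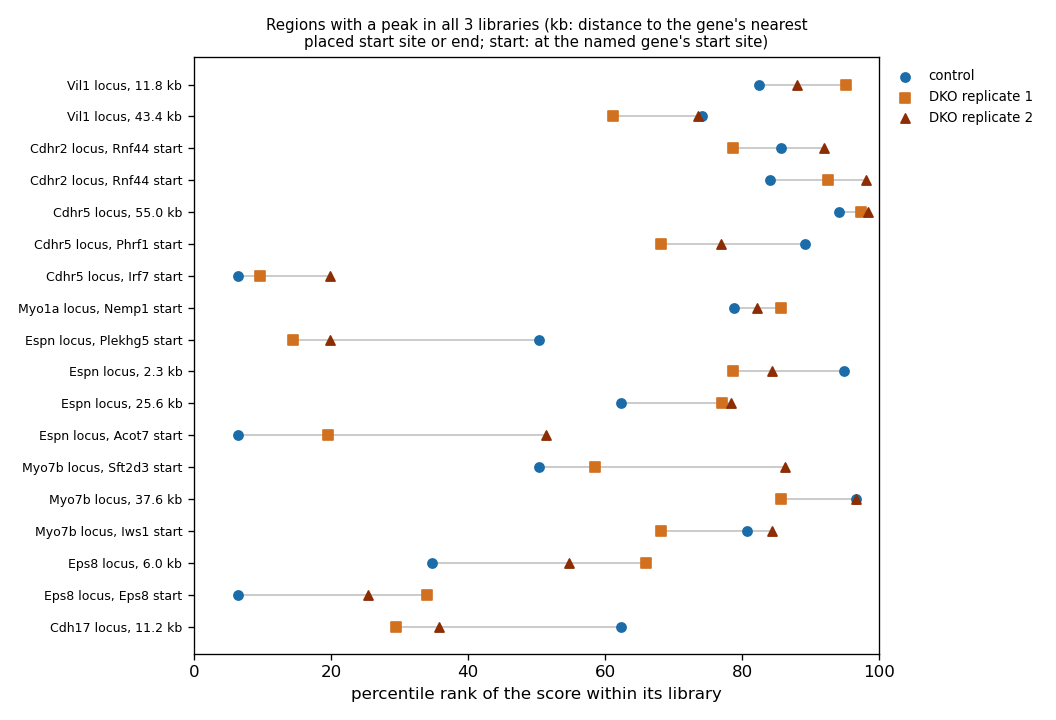
Percentile rank of the score in each library at the 18 regions called in all 3 libraries, 1 row per region, labelled by locus and by either the gene at whose start site it lies or the distance to the member. Circles are the control, squares DKO1 and triangles DKO2. The control point stands apart to the right at the Plekhg5 start site (50.4) and inside Cdh17 (62.3).

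The other genes of the brush border were taken from a list of 20 names, of which 18 could be placed (Cobl and Stx3 could not). Their loci held 112 regions, of which 36 were called in all libraries (32.1%). Another 23 were control-only (20.5%, Wilson 95% interval 14.1 to 28.9%) and 14 were DKO-only (12.5%, 7.59 to 19.9%). Over all regions of the genome the shares were 30.9%, 13.0% and 16.0%. The 13.0% lies just below the control-only interval, which covers counting error only, and the 16.0% lies inside the DKO-only interval. Start sites had a peak in the control at 7 of 18 genes, in DKO1 at 10 and in DKO2 at 9. Over all genes placed the shares were 44.0%, 51.0% and 52.8%. The median control rank of the list's control-only regions was 34.8, against 58.8 at the members and 28.9 over all such regions. Of the 112 regions, 3 were control-only with a rank of 75 or more, against 1.01% of all regions. Of the list's 36 shared regions, 8 had a control rank at least 25 points below DKO1 and DKO2 alike and none was that much higher. At the members these were 0 and 2 of 18, and over the genome 12.3% and 2.63% of shared regions. The difference between the lists was not tested.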

How the data were processed

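Per the labels, 75-base single-end reads were sequenced. The submitters' processing notes name FastQC 0.11.3, Bowtie2 2.2.6, deepTools 2.4.2, MACS 1.4.1 and the build mm9, with no role or order. Calling thresholds, duplicate handling and any transposase shift are not given in the sources used here. The authors deposited a score per peak, a whole number of unstated meaning. If it is a pileup height it rises with depth, so it was only ranked within a library.

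Peaks overlapping by 1 bp or more were merged into regions with Python 3.11.15 and pandas 2.3.3, and the highest peak per library gave the rank. Offsets were searched in bins of 1000 bp, and the next best offset lay over 20 kb away. A gene was counted where the offsets from 5 and 10 Mb agreed within 5 kb and more start sites within 0.5 Mb met a peak at the best offset than at the next. This last condition was added after the placings were seen. It departs from the planned placing, which would have counted Ezr at its best offset. Placing and merging were checked on simulated lists. The simulated shift was constant along a chromosome, so a change of shift near a gene was not tested. Start sites and strands came from RefSeq's promoter table, with 7 of 10 members matched. The members, gene lists and tests were chosen with earlier results of these data known. Named regions were the start-site region, the highest-ranking region of each locus, single-genotype regions with a rank of at least 75, and rank shifts of at least 25 points; other regions named were chosen after their values were seen. Exons were not used here.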

Additional observations from a re-analysis of the deposited data

How the results depend on the processing

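Unknown depth and 1 control library limit every count: a region without a peak cannot be told from one just under the calling threshold. With 16977 top-scoring peaks per library, start-site peaks of DKO1 and DKO2 fell to 1 gene each. A score of at least 21 left 34 regions, of which 8 were control-only and 7 DKO-only. Start-site peaks were then left at 1, 0 and 1 genes in the control, DKO1 and DKO2. Genome shares were not recomputed for equal lists or for this score limit. A flank of 10 kb left 26 regions, with 7 called in all libraries, 4 DKO-only and 9 control-only, 5 of the last inside Eps8. With 100 kb, 31 of 78 regions were called in all libraries. Over all regions of the genome, 30.9% were called in all libraries, 13.0% were control-only and 16.0% DKO-only. These shares are not limited to gene windows with either flank, for which none were computed. Within 2000 bp, DKO2 had a start-site peak at 5 genes. The 10 Mb offset gave DKO1 a start-site peak at 1 gene. Shares over all genes placed were not computed for the 2000 bp limit or the 10 Mb offset. Leaving out DKO1 or DKO2 gave 18 to 19 shared regions, 11 to 12 control-only, 13 to 18 DKO-only and median rank differences of -5.58 to -3.20 points. The classes then rest on the control and the DKO library kept, so none of these counts can fall. Genome shares were not recomputed with a DKO library left out. Without the Eps8 locus, added after seeing the data, 6 regions were control-only and 1 gene had a DKO1 start-site peak. Windows of 200 bp, a gap of up to 1 kb and Ezr at either offset moved no count of regions by over 1.5 times. The median rank difference of -4.40 points was -1.30 with equal list lengths, -1.70 without Eps8, -1.97 with Ezr at its next best offset, -8.28 with a 10 kb flank and 2.35 with 200 bp windows. No paired analysis was possible with 1 control library, and its title gives it no replicate number.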

Other observations

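Among the other brush border genes, the start site of Slc9a3r1, which encodes the ezrin-binding scaffold NHERF1, lay in a DKO-only region at chr11:115024287-115024925 that ranked 86.5 in DKO1 and 90.2 in DKO2, with the nearest control peak 24007 bp from the start site. The region also touches a start site of Rab37. One end of Myo1d, a class I myosin gene, lay in a DKO-only region with ranks of 81.3 and 76.9. The start site of Rab11a, a GTPase of apical recycling endosomes, had a peak in every library, with ranks of 22.8 in the control and 68.1 and 86.3 in the DKO replicates. In the other direction, a control-only region inside Misp, which encodes an actin-bundling protein, had a rank of 87.0, one inside Pls1 had 78.8 and one in the Anks4b locus had 76.6. These are values from 1 control library, with no replicate check on the control side.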
